A study of Taeniopygia guttata with 22 samples.

Results

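The genes of the cytosolic ribosomal proteins are the 71 genes, of 21786 with a gene ID in the count matrix, whose zebra finch symbol is RPL or RPS and a number, or RPLP0, RPLP1, RPLP2 or RPSA. Kinases named RPS6K and the genes of the mitochondrial ribosome were left out. Of the 71 members 40 belong to the large and 31 to the small subunit. On the bTaeGut7.mat assembly 68 are autosomal and 3 are Z-linked, namely RPS6, RPS23 and RPL37. Symbols RPL17, RPL18, RPL19 and RPL28 also fit the rule and were not analysed here. RNA was sequenced from RA, the robust nucleus of the arcopallium, a motor nucleus of the song circuit that is much larger in adult male zebra finches than in females. The 22 libraries came from 5 females and 5 males aged 20 days posthatch and from 7 females and 5 males aged 50 days. All birds were taken early in the light phase, before any song was recorded, and the labels name no treatment, strain or altered genotype. RA was cut by laser from frozen sections stained with cresyl violet, and cDNA was amplified from 1 ng of RNA with the SMART-Seq v4 chemistry. The design text names sex and age as the factors compared.

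The cytosolic ribosome joins a small subunit, which reads the mRNA, to a large subunit, which links the amino acids. Its proteins are made in matched amounts, since each is held in the particle as a single copy (the P-stalk proteins excepted), and their mRNAs share a pyrimidine-rich start through which mTOR signalling controls their translation. In birds males are ZZ and females ZW, and a Z-linked gene is present in 2 copies in males and 1 in females. Birds lack a chromosome-wide mechanism that fully evens out this dose, so the Z-linked ribosomal protein genes are set apart from the rest here.

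The totals per library were 16.17 M to 65 M counts, where M stands for 1e6. The libraries fell into 13 shallow ones, up to 22.35 M, and 9 deep ones, from 49.12 M. All 5 females at 20 days were deep and all 5 males shallow, so sequencing depth and sex cannot be told apart among the youngest birds. At 50 days 1 of 7 females and 3 of 5 males were deep. A depth term in a fit is thus estimated from the 50-day libraries alone and carried over to the 20-day birds. Each library has its own brain id, but the ids of female 50-day replicates 5 and 6 share a number, and these libraries may come from 1 bird. The ids of female 50-day replicates 1, 2, 4 and 5 end in R and that of replicate 3 in W, and no other id carries a letter. These letters were not a term in any fit. Every one of the 13 neuronal markers was detected, among them the glutamate transporter gene SLC17A6 at 395 to 807 CPM (counts per 1e6 counts). SLC17A7, another glutamate transporter gene on the list, was near the floor at 0.0468 to 1.77 CPM.

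Levels are given as CPM scaled between libraries with TMM, the trimmed mean of M-values. They are not divided by transcript length, so the order of 2 members by CPM is an order of reads and not of transcripts. The members with the most reads were RPL9, a protein of the large subunit, RPS27A, which is made as a fusion with ubiquitin, and RPL3, which reaches to the peptidyl transferase centre. Their means over all libraries were 203 CPM, 201 CPM and 197 CPM. RPL9 stood at 213 ± 29.0 CPM (SD, n = 5) in females and 212 ± 20.9 CPM (SD, n = 5) in males at 20 days. At 50 days the females had 186 ± 36.5 CPM (SD, n = 7) and the males 207 ± 16.48 CPM (SD, n = 5). Of the members 61 had a mean above 40 CPM.

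A few members of the small subunit had low mean values although each is a core protein of the ribosome. RPS2, which lines the mRNA entry channel, had a mean of 0.411 CPM, with 2 to 34 counts per library, and RPS26, which contacts mRNA at the exit, 6.09 CPM. RPS19 and RPS9, singled out after their values were seen, had 9.89 and 17.7 CPM. RPS19 varied widely within groups and ran from 1.93 to 24.8 CPM among the males at 20 days, and RPS26 ran from 1.05 to 10.3 CPM among the females of that age. RPS2 had a coefficient of variation of 17.5% and 23.3% in females and males at 20 days and of 45.5% and 53.0% at 50 days. None of these named genes passed a test in any comparison. RPL3L, a paralogue used in mammalian striated muscle, had 0 to 13 counts per library and was too low to test, which left 70 members tested, 67 of them autosomal.

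The 71 members together held 0.4658% to 0.828% of a library's counts. The share was 0.727% ± 0.0725 (SD, n = 5) in females and 0.757% ± 0.0688 (SD, n = 5) in males at 20 days. At 50 days it was 0.648% ± 0.1097 (SD, n = 7) in females and 0.691% ± 0.0507 (SD, n = 5) in males. All 4 groups overlapped, and the lowest share, 0.4658%, was that of female 50-day replicate 3. Female 50-day replicates 1, 2, 4 and 5, whose brain ids end in R, had 0.6693% to 0.7536%. Replicates 3, 6 and 7 had 0.4658% to 0.5864%. This split was noticed after the values were seen and was not tested. In bulk RNA, fewer cells of a type and less RNA per cell cannot be told apart.

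**Figure D1:**
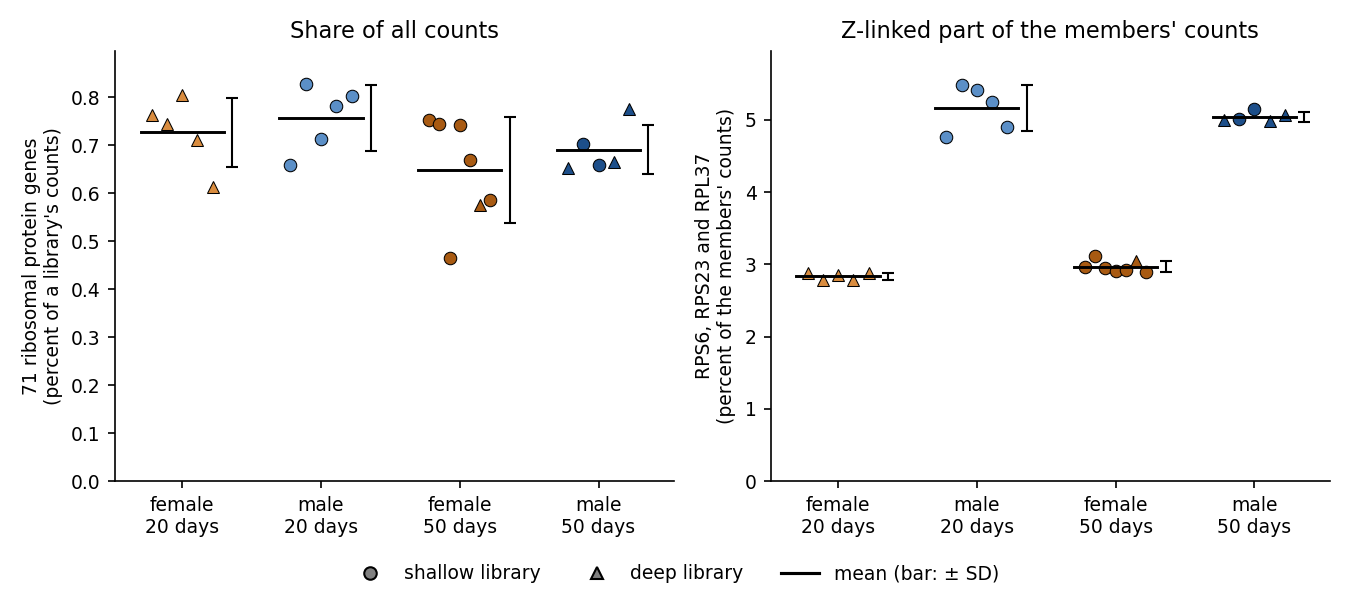
The left panel plots the percent of each library's counts that fell on the 71 ribosomal protein genes, and the right panel the percent of those member counts that fell on the 3 Z-linked genes; each point is a library (triangles deep, circles shallow), lines are means and bars SD. The 4 groups overlap on the left, from 0.4658% to 0.828%, while on the right males (4.77% to 5.49%) lie above females (2.79% to 3.12%).

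Within a group the members moved together from library to library. Among females at 50 days, 57 of the 67 autosomal members had their lowest value in replicate 3, where 18.1% of all genes tested had theirs. Among females at 20 days 59 of 67 were lowest in replicate 5, against 19.6% of all genes. Among males at 50 days 43 of 67 were highest in replicate 5, against 19.6% of all genes. The median spread of a member was below that of all genes tested in each group, but only slightly so in females at 50 days. The median coefficient of variation of the autosomal members was 13% in females and 10.4% in males at 20 days and 21.7% and 10.1% at 50 days. Over all genes tested it was 19.3%, 20.8%, 23% and 21.1% in the same order. The members and all genes were not matched by level.

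**Figure D2:**
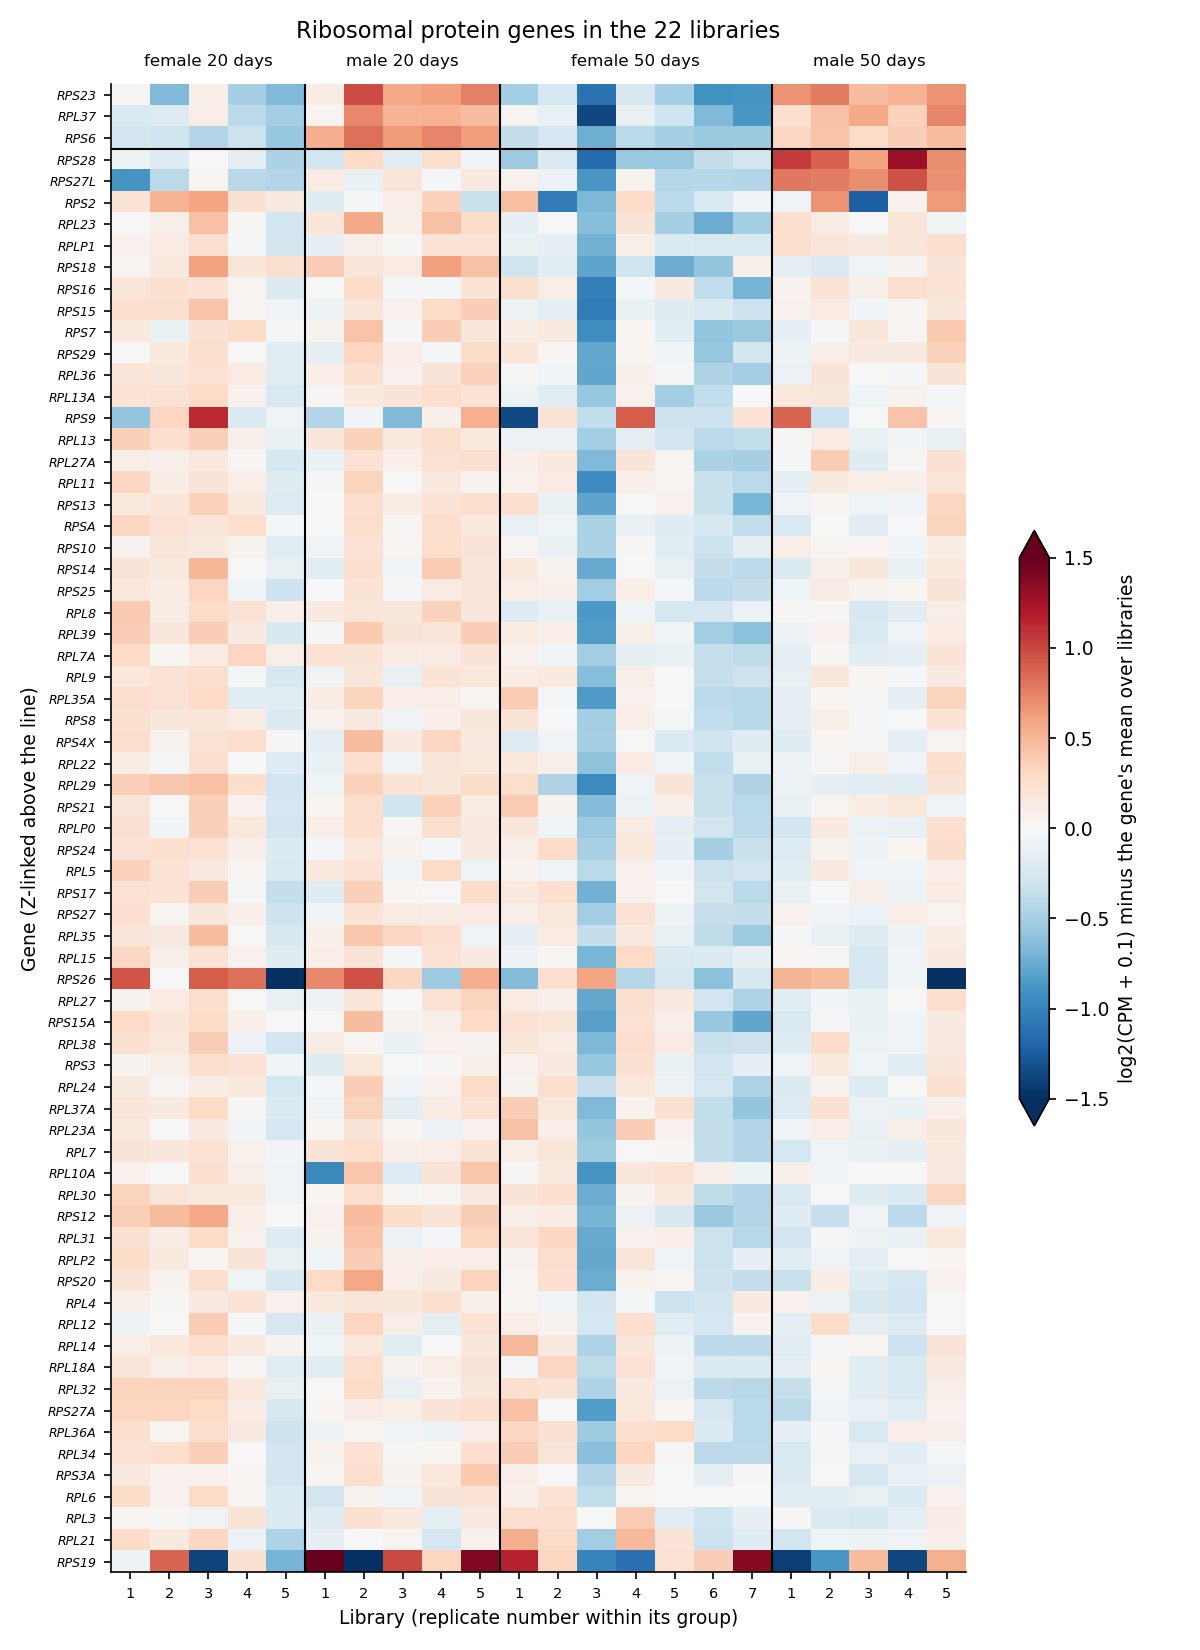
Each row is a tested ribosomal protein gene (not every tested member is drawn) and each column a library, coloured by log2(CPM + 0.1) minus the gene's mean over the 22 libraries and cut at the ends of the colour scale; rows are ordered by the fold between the sexes at 50 days. The Z-linked rows at the top are high in males, except that RPS23 and RPL37 lie near their means in male 20-day replicate 1. RPS28 and RPS27L are high in males at 50 days, and female 50-day replicate 3 is low over most rows.

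The Z-linked members were higher in males at both ages. RPS6, the small-subunit protein that S6 kinases phosphorylate downstream of mTOR, was 2.08-fold higher at 20 days and 1.80-fold at 50 days. RPS23, which holds a conserved loop at the decoding centre, was 1.92-fold and 2.35-fold higher. RPL37, a zinc-binding protein of the large subunit, was 1.62-fold and 1.85-fold higher, with the former not past the threshold. Of the members' own counts the 3 genes took 2.84% ± 0.0478 (SD, n = 5) in females and 5.16% ± 0.315 (SD, n = 5) in males at 20 days, and 2.97% ± 0.0820 (SD, n = 7) and 5.04% ± 0.0681 (SD, n = 5) at 50 days.

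At 20 days RPS6 stood at 113, 111, 101, 109.6 and 92.2 CPM in the females and at 199.9, 242, 213, 228 and 212 CPM in the males. At 50 days it ran from 82.5 through a median of 97.1 to 115 CPM in the females and stood at 169, 184, 168, 176 and 190.1 CPM in the males. No male library came near the females at either age. The log2 fold change was 1.05 (SE 0.08) at 20 days and 0.85 (SE 0.08) at 50 days in the quasi-likelihood test of edgeR (Benjamini-Hochberg adjusted p = 3.56e-08 and 2.45e-08). The males at 50 days all lay below those at 20 days, a fall of 0.30 on the log2 scale (SE 0.08, edgeR adjusted p = 0.00978). With the depth set as a term the fall was about as large and not called (log2 -0.28, adjusted p = 0.066). In females the change with age was -0.10 (adjusted p = 0.459), and the difference between the 2 age changes did not pass (log2 -0.21, SE 0.11, edgeR adjusted p = 0.263).

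RPS23 stood at 40.3, 25.2, 42.2, 28.2 and 25.1 CPM in the females at 20 days and at 43.1, 78.4, 59.1, 61.1 and 67.4 CPM in the males. The older females ran from 18.5 through a median of 27.8 to 33.6 CPM and the older males stood at 63.7, 68.4, 54.7, 57.3 and 63.7 CPM. The sexes were close at 20 days, where the lowest male lay just above the highest female, and well apart at 50 days. The log2 fold changes were 0.94 (SE 0.18) and 1.23 (SE 0.17), with edgeR adjusted p = 0.00271 and 6.11e-06. With depth set as a model term the call at 20 days was lost (log2 0.80, edgeR adjusted p = 0.304). That term rests on the libraries at 50 days, since neither group at 20 days mixed depths.

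RPL37 stood at 71.3, 73.0, 89.6, 63.3 and 58.4 CPM in the females at 20 days and at 86.0, 137, 119, 120.1 and 115 CPM in the males. Among the older birds the females ran from 32.2 through a median of 67.8 to 86.0 CPM and the males stood at 98.1, 113, 124, 106 and 139 CPM. At 20 days male replicate 1 fell within the female range, and at 50 days the sexes did not overlap. The log2 fold changes were 0.70 (SE 0.20, edgeR adjusted p = 0.0767) and 0.89 (SE 0.18, edgeR adjusted p = 0.000537). RPL37 passed at 20 days in 7 of 37 alternative settings. Among them were the edgeR fits without female replicate 3 (adjusted p = 0.0474), without male replicate 1 (0.0431) and without female 50-day replicate 3 (0.0151), and DESeq2 (0.023). With depth set as a model term it was not called (log2 0.55, edgeR adjusted p = 0.677), nor with replicate number as a block (0.15). Its adjusted p reached 0.214 in the fits that leave out a library.

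**Figure D3:**
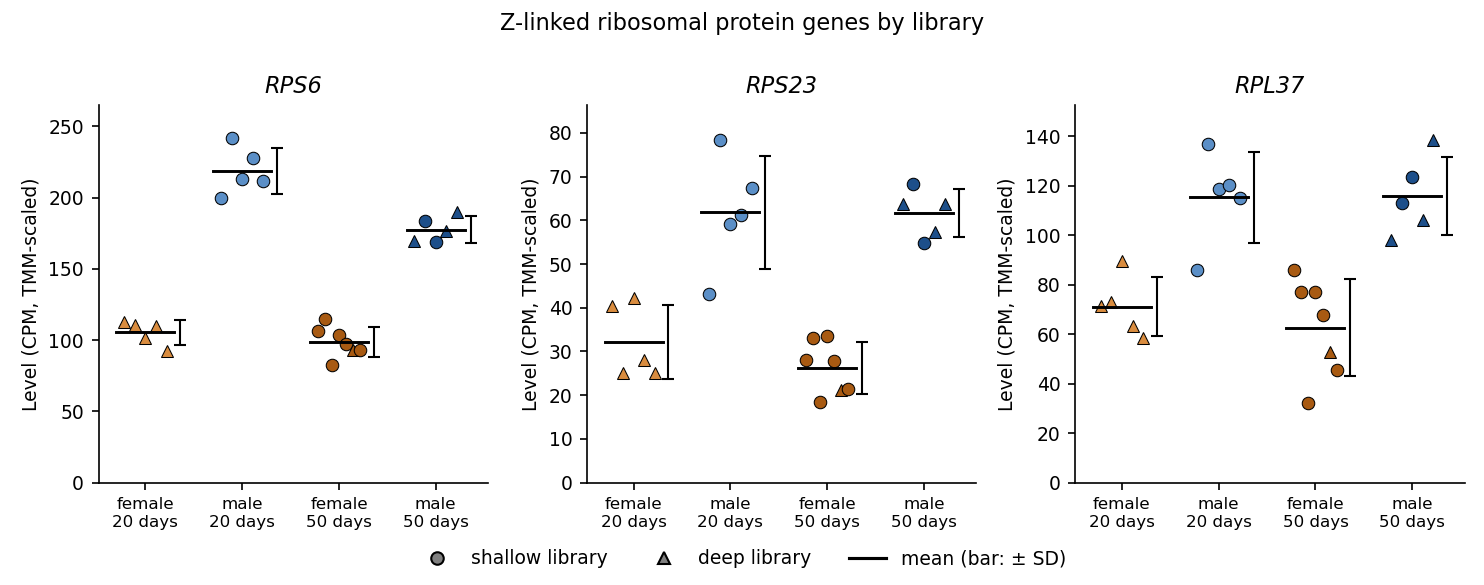
Each point is the level of a Z-linked ribosomal protein gene in a library, in TMM-scaled CPM (triangles deep libraries, circles shallow ones), with the mean as a line and the SD as a bar. RPS6 in males lies between 168 and 242 CPM, above every female (82.5 to 115 CPM); RPS23 and RPL37 separate the sexes at 50 days, and RPL37 overlaps at 20 days.

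Set against the median of the 67 autosomal members in the same library, which removes the scaling between libraries, all 3 genes were higher in males at both ages. On this scale RPS6 was 2.07-fold higher at 20 days and 1.62-fold at 50 days, RPS23 1.93-fold and 2.15-fold, and RPL37 1.62-fold and 1.73-fold. The exact two-sided permutation p was 0.00794 for each at 20 days and 0.00126 at 50 days, the smallest that 5 against 5 and 5 against 7 libraries can give (0.00794 and 0.00253 after Benjamini-Hochberg adjustment over the 6 tests). These relative values ran from 0.96 to 1.14 in the 5 males and from -0.16 to 0.14 in the 5 females for RPS6 at 20 days, on the log2 scale. RPS6 was thus the Z-linked member whose ratio of males to females was smaller at 50 than at 20 days, while those of RPS23 and RPL37 were larger. These changes in the relative values were not tested. On the TMM-scaled counts, another measure, none of the 3 passed the interaction test (edgeR adjusted p = 0.263, 0.496 and 0.7).

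Among all genes on Z, 42.7% were called higher in males at 20 days and 57.4% at 50 days, and the median Z-linked gene had a log2 fold change of 0.69 and 0.67. The 3 members had 1.05, 0.94 and 0.70 at 20 days and 0.85, 1.23 and 0.89 at 50 days, in the order RPS6, RPS23 and RPL37. Of the genes beside these members on the assembly table, the endosomal regulator gene DENND4C next to RPS6 and the autophagy gene ATG10 next to RPS23 were also higher in males at 20 days (1.80-fold and 2.22-fold, edgeR adjusted p = 9.28e-05 and 0.000572) and at 50 days (1.56-fold and 2.15-fold, adjusted p = 0.000141 and 4.65e-05). Other Z-linked neighbours read were not called at 20 days, namely the kinase gene PRKAA1 beside RPL37 (1.27-fold, edgeR adjusted p = 0.4933) and the ceramidase gene ACER2 on the other side of RPS6 (log2 0.08, adjusted p = 0.988). At 50 days PRKAA1 was 1.79-fold higher in males (adjusted p = 0.000171), and ACER2, which had about 0.853 CPM in the younger females, had a log2 difference of 1.09 (adjusted p = 0.175).

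At 20 days no autosomal ribosomal protein gene passed the test between the sexes. In all 2 of 70 members, RPS6 and RPS23, were called higher in males and 0 lower, where 1.92% of all genes tested were called higher and 0.181% lower. Of the 67 autosomal members 0 were called, where 0.124% of autosomal genes were called higher and 0.209% lower. Among them RPS27L alone had an unadjusted p under 0.05, DESeq2 called 0, and voom called RPS27L. Their median log2 fold change was 0.03, against -0.01 over all genes tested, and the middle quartiles of the members ran only from -0.02 to 0.06.

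At 50 days 10 of 70 members were called higher in males and 0 lower, where 16% of all genes tested were called higher and 17.2% lower. The share of members called higher is near that of all genes, and no member was among the many genes lower in males (0 also at an unadjusted p under 0.05, with DESeq2 and with voom). Beside the 3 Z-linked genes they were RPS28, RPS27L, RPL23, RPLP1, RPS15, RPL13 and RPL13A, 7 of 67 autosomal members, where 15.5% of autosomal genes were called higher and 19.7% lower. The autosomal members had a median log2 fold change of 0.13, with 55 of 67 above 0, against -0.03 over all genes tested, of which 7625 of 16004 lay above 0. Scaled over the members alone, which centres them near 0 by construction, the members' median was -0.02. The median log2 CPM of the autosomal members in a library was 6.43 ± 0.28 (SD, n = 7) in females and 6.58 ± 0.12 (SD, n = 5) in males, a difference within the spread of the female libraries. It ran from 6.49 to 6.71 in female replicates 1, 2, 4 and 5, whose ids end in R. In female replicates 3, 6 and 7 it ran from 5.99 to 6.24, and in the males from 6.48 to 6.75. The part of this label in the sex difference was not tested.

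**Figure D4:**
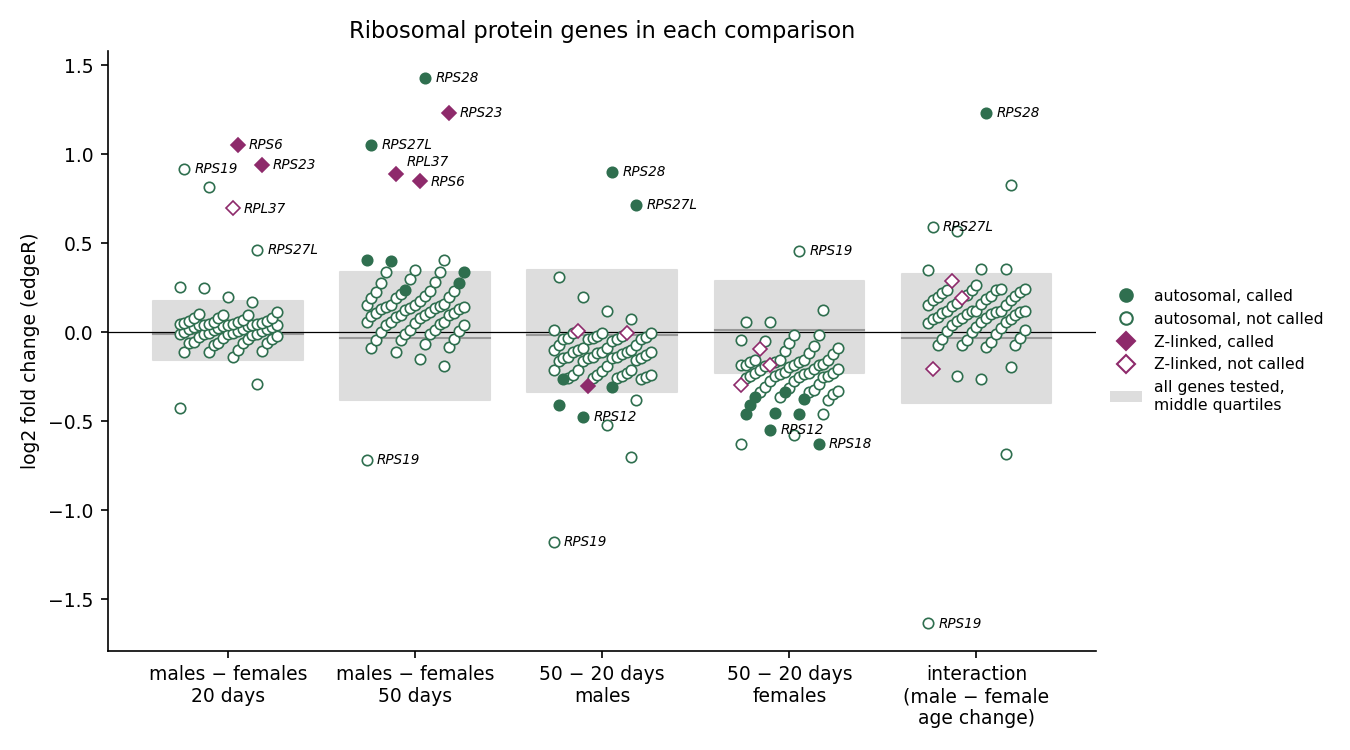
Each point is a tested ribosomal protein gene at its log2 fold change in a comparison (circles autosomal, diamonds Z-linked, filled where edgeR's adjusted p was under 0.05); the grey box spans the middle quartiles of all 16004 genes tested and its line their median. Points scatter near 0 at 20 days apart from the Z-linked genes, RPS27L and a few low-count members. RPS28 and RPS27L stand above the other autosomal members at 50 days. Most members lie below 0 in both age comparisons under this scaling over all genes. Scaled over the members alone, which centres them near 0 by construction, their medians were -0.0012 in males and 0.015 in females.

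RPS28, a small protein on the mRNA path of the small subunit, rose furthest. It stood at 20.7, 19.1, 21.7, 19.6 and 15.7 CPM in the females at 20 days and at 18.03, 26.8, 19.3, 25.8 and 21.2 CPM in the males. At 50 days it ran from 9.74 through a median of 14.9 to 18.7 CPM in the females and stood at 45.2, 40.2, 33.1, 53.6 and 35.3 CPM in the males. The sexes overlapped at 20 days, and every male at 50 days lay above every other library. The 50-day difference was 2.69-fold (log2 1.43, SE 0.15, edgeR adjusted p = 2.25e-07), while at 20 days it was 0.20 (SE 0.17, adjusted p = 0.809).

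The rise of RPS28 with age in males was 0.90 on the log2 scale (SE 0.17, edgeR adjusted p = 0.000282), and the change in females was -0.33 (SE 0.15, adjusted p = 0.152). Their difference, the interaction of sex and age, was 1.23 (SE 0.23, edgeR adjusted p = 0.00103). RPS28 was the 1 member of 70 called higher in that test and 0 were called lower, where 5.75% of all genes tested were called higher and 6.57% lower (1 was lower at an unadjusted p under 0.05, and 0 with DESeq2 and voom). With depth set as a model term the interaction was 0.88 with an adjusted p of 0.297. Among shallow 50-day libraries alone the sexes still differed, by 1.29 on the log2 scale (edgeR adjusted p = 0.00143), and the rise in males was then 0.74 with an adjusted p of 0.0569.

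RPS27L, a near copy of the small-subunit protein RPS27 that p53 induces in human cells, showed the next largest difference among the autosomal members at 50 days. It stood at 47.5, 66.2, 90.0, 65.8 and 64.4 CPM in the females at 20 days and at 95.2, 81.6, 99.7, 87.0 and 96.2 CPM in the males. The older females ran from 48.0 through a median of 65.5 to 92.1 CPM and the older males stood at 152, 149.6, 142, 171 and 142 CPM. As for RPS28, the 5 males at 50 days lay above every other library. The 50-day difference was 2.08-fold (log2 1.05, SE 0.14, edgeR adjusted p = 4.86e-06) and the rise in males 0.72 (SE 0.15, adjusted p = 0.00124).

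The interaction for RPS27L missed the threshold (log2 0.59, SE 0.21, edgeR adjusted p = 0.0667), so its sex difference was not shown to change with age. It passed without female 20-day replicate 1 (adjusted p = 0.0269), without female 50-day replicate 1 (0.0387), without female 50-day replicate 4 (0.0409) and with DESeq2. At 20 days its log2 difference of 0.46 had an adjusted p of 0.182, and of 0.0374 without female replicate 3. RPS27 itself, the standard member of the pair, had 31.7 CPM over all libraries. How reads that match both copies were counted is not given in the sources used here.

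**Figure D5:**
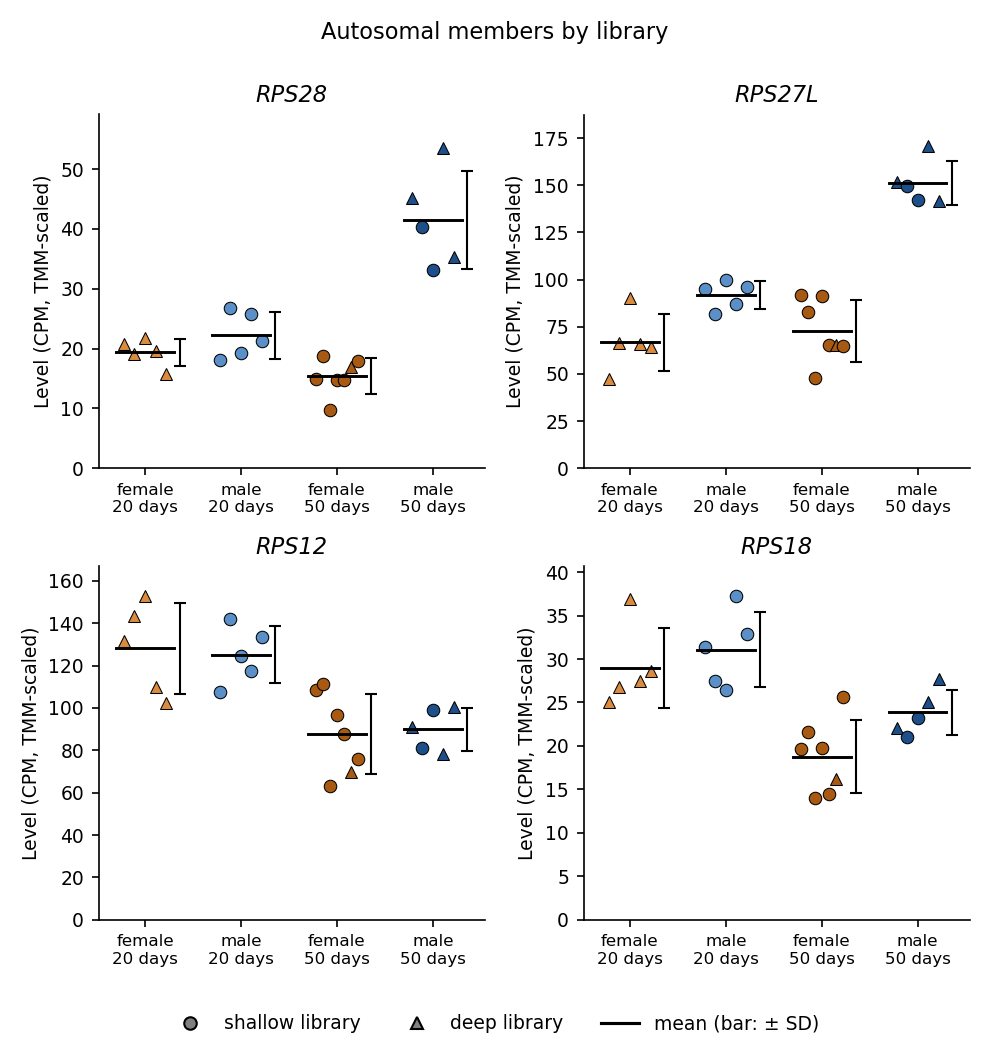
Each point is the level of an autosomal ribosomal protein gene in a library, in TMM-scaled CPM (triangles deep libraries, circles shallow ones), with the mean as a line and the SD as a bar. RPS28 and RPS27L are highest in the 5 males at 50 days (33.1 to 53.6 and 142 to 171 CPM), whereas RPS12 and RPS18 are lower at 50 than at 20 days in both sexes.

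The genes beside RPS28 and RPS27L on the assembly table were read too, since the strand setting of the counting is not given. KANK3, an actin-regulating gene beside RPS28, was 2.32-fold higher in males at 50 days (edgeR adjusted p = 1.53e-05), and the complex I gene NDUFA7 on the other side 1.26-fold (adjusted p = 0.0352). LACTB, a mitochondrial protease-like gene beside RPS27L, was 1.83-fold higher (adjusted p = 9.69e-07), while RAB8B, the nearest gene with an assigned name on the other side (an unnamed locus that overlaps RPS27L lies between), had a log2 fold change of -0.07 (adjusted p = 0.796). With age in males KANK3, NDUFA7 and LACTB rose by log2 1.09, 0.41 and 0.81 (edgeR adjusted p = 0.000232, 0.0228 and 1.31e-05). Their interactions were 0.90, 0.55 and 0.77 (edgeR adjusted p = 0.0282, 0.0431 and 0.00207). RAB8B was called in neither (log2 -0.04 and -0.23, edgeR adjusted p = 0.9 and 0.614). The part of shared reads in these values was not tested.

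The other 5 autosomal calls at 50 days were small. RPLP1, an acidic P-stalk protein that recruits elongation factors, ran from 90.9 through a median of 129 to 159 CPM in the females and stood at 177, 169, 164, 168 and 177 CPM in the males. All 5 males lay above the 7 females, and the difference was 1.32-fold (log2 0.40, SE 0.10, edgeR adjusted p = 0.00418). In the shallow libraries alone the difference was about as large and not called (log2 0.37, adjusted p = 0.15). RPS15, whose tail reaches the decoding centre, also did not overlap, with 41.1 to 80.2 CPM in females and 82.7 to 95.3 CPM in males (log2 0.34, edgeR adjusted p = 0.0402). RPL23, a large-subunit protein that binds MDM2 in human cells, overlapped between the sexes (log2 0.40, edgeR adjusted p = 0.0364), as did RPL13 (0.24, adjusted p = 0.0404) and RPL13A, named after its values were seen (0.28, adjusted p = 0.0467).

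The call of RPLP1 held in all 22 fits that leave out a library (adjusted p from 0.00135 to 0.0114), while those of RPS15, RPL23, RPL13 and RPL13A depended on single libraries. Without female 50-day replicate 6, male 50-day replicate 2 or male 50-day replicate 4 the members called fell to 6, and in each case RPS15, RPL23, RPL13 and RPL13A were the ones lost. The same 4 were lost without male 50-day replicate 1, when RPSA passed. RPL13, RPL13A and RPL23 were also lost without female 50-day replicate 3 or 5, RPL13, RPL23 and RPS15 without female replicate 7, and RPL13A and RPS15 without male replicate 5. RPL13A was lost as well without female 50-day replicate 2 and without female replicates 1 and 2 and male replicates 2, 3, 4 and 5 of the 20-day groups. The adjusted p then reached 0.109 for RPL13, 0.103 for RPL13A, 0.0838 for RPL23 and 0.0875 for RPS15. Scaled over the ribosomal protein genes alone, an alternative added after the data were seen, RPS28, RPS27L, RPLP1 and the 3 Z-linked genes stayed higher, while RPL21, RPL6 and RPS3A were called lower (log2 -0.31, -0.27 and -0.25, edgeR adjusted p = 0.0244, 0.0408 and 0.0493). That scaling moved the median of all genes tested from -0.03 to -0.21.

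With age most autosomal ribosomal protein genes had lower values relative to all genes in both sexes, though few changes passed the test. Scaling over the members alone sets their medians near 0 by construction (-0.0012 in males and 0.015 in females), so it cannot check this fall. In males 2 of 70 members were called higher at 50 days and 5 lower, where 12.5% of all genes tested were called higher and 14.2% lower. In females 0 of 70 were called higher and 9 lower, where 6.8% of all genes were called higher and 8.05% lower. Of the members 0 rose in females at an unadjusted p under 0.05, with DESeq2 or with voom. The autosomal members had a median log2 change of -0.12 in males, with 60 of 67 below 0, and of -0.23 in females, with 63 of 67 below 0. Over all genes tested the medians were -0.01 and 0.01. Members share libraries, so the counts below 0 carry no test. The median log2 CPM of the autosomal members in a library overlapped between the ages in both sexes. In females it ran from 6.39 to 6.83 at 20 days. At 50 days it ran from 6.49 to 6.71, within that range, in the females whose ids end in R. In the other females of that age it ran from 5.99 to 6.24. The males had 6.575 to 6.85 at 20 days and 6.48 to 6.75 at 50 days. The part of the label in the female fall was not tested. The age changes of the sexes were not set against each other as a list, and the interaction called RPS28 alone.

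RPS12, a small-subunit protein that in Drosophila takes part in cell competition, was the autosomal member called lower in both sexes. It stood at 132, 144, 153, 110.0 and 103 CPM in the females at 20 days and ran from 63.3 through a median of 87.5 to 111 CPM at 50 days. In the males it stood at 108, 142, 125, 117 and 134 CPM at 20 days and at 91.0, 81.0, 99.2, 78.3 and 100.3 CPM at 50 days. The ages did not overlap in males and overlapped in females. The fall was 0.55 on the log2 scale in females (SE 0.13, edgeR adjusted p = 0.00675) and 0.47 in males (SE 0.14, adjusted p = 0.0171). With depth set as a term the male change was -0.38 and not called (adjusted p = 0.165), and the female one was -0.69 and called (0.0493).

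In females the largest fall was that of RPS18, a protein of the head of the small subunit. It stood at 25.02, 26.8, 36.9, 27.5 and 28.6 CPM at 20 days and ran from 14.02 through a median of 19.7 to 25.6 CPM at 50 days. The ages overlapped by 1 library at 50 days, and the fall was 0.63 (SE 0.14, edgeR adjusted p = 0.00449). In males RPS18 had 31.1 ± 4.35 CPM (SD, n = 5) at 20 days and 23.9 ± 2.64 CPM (SD, n = 5) at 50 days (log2 -0.38, adjusted p = 0.0749).

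RPL8, a large-subunit protein at the peptidyl transferase centre, stood at 167, 138, 155, 148 and 134 CPM in females at 20 days. At 50 days it ran from 70.2 through a median of 112 to 122 CPM, below every 20-day female. The fall was 0.46 (SE 0.10, edgeR adjusted p = 0.00402). RPL13 fell by 0.46 as well (SE 0.09, adjusted p = 0.00113) and RPS15 by 0.46 (SE 0.12, adjusted p = 0.0156). RPSA, which binds at the mRNA exit and is also known as a laminin receptor, fell by 0.41 and RPS4X by 0.36 (edgeR adjusted p = 0.00562 and 0.0111). RPL7A and RPL13A, named after their values were seen, fell by 0.38 and 0.34 (adjusted p = 0.00763 and 0.0334).

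The 20-day females were all deep and the 50-day females, but for 1, shallow. With depth set as a model term 2 of the 9 calls in females remained, RPL13 and RPS12, at log2 -0.54 and -0.69. The other 7 kept changes of about the same size, from -0.35 for RPSA to -0.62 for RPS18, with adjusted p from 0.0574 to 0.21. Scaled over the ribosomal protein genes alone, RPS12 was the 1 member still called and the median of all genes moved from 0.01 to 0.28. Without female 50-day replicate 3, the library low over most members, 8 of the 9 calls remained and RPL13A was lost (adjusted p = 0.063). RPL13A was also lost without female 20-day replicate 1, 2, 3 or 4 or female 50-day replicate 5 or 6 (adjusted p up to 0.0903). RPS15 was lost without female 20-day replicate 3 (adjusted p = 0.0524).

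In males RPS28, RPS27L, RPS12 and RPS6 have been given above, and 3 more members fell. RPS3A, a small-subunit protein, stood at 182, 210.4, 184, 198 and 233 CPM at 20 days and at 153, 178, 149, 166 and 167 CPM at 50 days. RPL4, which lines the exit tunnel for the new peptide, ran from 196 to 219.7 CPM at 20 days and from 154 to 195 CPM at 50 days. Neither overlapped between the ages, and the falls were 0.31 and 0.26 (edgeR adjusted p = 0.0247 and 0.0286). RPS20 overlapped and fell by 0.41 (adjusted p = 0.0475). Without male 20-day replicate 2 or male 50-day replicate 3 the calls in males went from 7 to 4, and RPS20, RPS3A and RPL4 were lost. RPS3A was also lost without male 20-day replicate 5 or male 50-day replicate 1 (adjusted p up to 0.0796), and RPL4 without female 20-day replicate 4, male 20-day replicate 4 or male 50-day replicate 4 (up to 0.0876). RPS20 was lost in 13 of the 22 fits that leave out a library (up to 0.138). With depth set as a model term RPS28 and RPS27L were the 2 that remained, and in shallow libraries alone RPS27L was the 1. The 5 falls ran from -0.24 to -0.38 with the depth term and from -0.28 to -0.45 in the shallow libraries, none of them called. Scaled over the members alone RPS28, RPS27L and RPS12 remained, and the median of all genes moved to 0.11.

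Markers of other cells moved with age and sex beside these genes. All 5 oligodendrocyte markers measured, of 10 listed, rose with age in both sexes. Their summed level ran from 133 to 1356 CPM in females and 133 to 1146 CPM in males at 20 days, and from 2762 to 6590 CPM and 7060 to 12399 CPM at 50 days. The median microglial sum went from 60.4 to 98.2 CPM in females and from 55.7 to 82.0 CPM in males. In males at 50 days the neuronal sum ran from 14537 to 17009 CPM, against 8701 to 11499 CPM in females of that age. PVALB alone reached 8337 CPM in a library. Of the 13 neuronal markers 3 were called higher in males at 50 days and 6 lower, with a median log2 fold change of -0.37. Of all genes tested 16% were called higher and 17.2% lower. The astrocyte sums were 7579 to 9187 CPM in these males against 4644 to 5503 CPM in the females. The endothelial and mural ones were 447 to 624 CPM against 246 to 394 CPM. No list had a marker at 0 throughout a group. Whether the makeup of the captured tissue takes part in the ribosomal protein values was not tested.

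By position in the ribosome, some sites held both called and uncalled members. Of the 4 P-stalk proteins RPLP1 was called higher in males at 50 days, where 16% of all genes tested were called higher. Its partner RPLP2 had a log2 difference of 0.01 (SE 0.13, edgeR adjusted p = 0.944). RPLP0, the base of the stalk, had 0.13 (SE 0.12) and RPL12, which sits beside the base, -0.01 (SE 0.12). RPLP2 stood at 66.3 ± 14.6 CPM (SD, n = 7) in females and 67.0 ± 4.03 CPM (SD, n = 5) in males at 50 days. The difference between RPLP1 and RPLP2 was not tested. RPL5 and RPL11, which carry the 5S rRNA and bind MDM2 when free, were called in no comparison. Their largest changes were those with age in females, -0.24 (SE 0.10, edgeR adjusted p = 0.11) and -0.27 (SE 0.14, adjusted p = 0.195).

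At the peptidyl transferase centre RPL8 fell with age in females, whereas RPL3 had a log2 change of 0.06 (SE 0.11, edgeR adjusted p = 0.783). The difference between RPL8 and RPL3 was not tested. Of the 8 proteins of the decoding centre and the mRNA path, RPS23, RPS28 and RPS15 were called higher in males at 50 days, and RPSA, RPS3, RPS14, RPS26 and RPS2 were not. Of all genes tested 16% were called higher in that comparison. RPS3 had 121 ± 21.7 CPM (SD, n = 7) in females and 128 ± 12.9 CPM (SD, n = 5) in males of that age, and RPS14 159 ± 32.6 CPM (SD, n = 7) and 182 ± 20.7 CPM (SD, n = 5). RPS27A, which also supplies ubiquitin, was called nowhere, with log2 changes of -0.26 and -0.25 with age in males and females (edgeR adjusted p = 0.262 and 0.282). RPS4X, which is X-linked in mammals, is autosomal here and did not differ by sex beyond the spread between libraries (log2 0.03 and 0.15, edgeR adjusted p = 0.969 and 0.245).

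Both subunits held called members. At 50 days 3 of 29 autosomal small-subunit and 4 of 38 large-subunit members were called higher in males, with median log2 fold changes of 0.15 and 0.09, where 15.5% of autosomal genes were called higher. With age in females 5 of 29 and 4 of 38 fell, with medians of -0.25 and -0.20, where 8.05% of all genes fell. With age in males 3 of 29 and 1 of 38 fell and 2 and 0 rose, with medians of -0.10 and -0.14, where 14.2% of all genes fell and 12.5% rose.

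Other genes of the ribosome that the naming rule leaves out were read too. The ubiquitin-like fusion gene FAU and the paralogues RPL7L1, RPL22L1 and RPL26L1 gave 1 call in 5 comparisons. It was a fall of RPL26L1 with age in males of 0.31 (edgeR adjusted p = 0.0479), where 14.2% of all genes tested fell. Over the 5 comparisons 0.181% to 17.2% of all genes tested were called lower and 1.92% to 16% higher. In females FAU had a log2 change with age of -0.32, not past the threshold (edgeR adjusted p = 0.23).

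Of the 32 translation factors tested, 14 were lower and 3 higher with age in males, with a median log2 change of -0.23, and 10 were lower and 0 higher in females, with a median of -0.20. Of all genes tested 14.2% were lower and 12.5% higher with age in males, and 8.05% and 6.8% in females. In males the initiation factor subunit EIF3B fell by 0.48 and the elongation factor subunit EEF1D by 0.64 (edgeR adjusted p = 0.000457 and 0.00357). In females EIF3M fell by 0.51 and EIF2S3 by 0.42 (adjusted p = 0.00134 and 0.000201). At 50 days 5 factors were lower and 1 higher in males, where 17.2% of all genes were lower and 16% higher. Among the lower were EIF4A2, a helicase of initiation, and EEF1A2, the elongation factor of mature neurons, which were 1.36-fold and 1.29-fold lower (edgeR adjusted p = 0.00016 and 0.000163).

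Of the 44 genes of ribosome assembly and rRNA synthesis, 12 were lower and 3 higher in males at 50 days, where 17.2% and 16% of all genes were. With age in males 8 fell and 0 rose, where 14.2% and 12.5% of all genes did, and RRP9 and UTP20 fell by 0.54 and 0.61 (edgeR adjusted p = 0.0104 and 0.00789). The Z-linked RIOK2 and UTP15, an assembly kinase and a processome subunit, were 1.84-fold and 1.64-fold higher in males at 20 days (adjusted p = 3.31e-07 and 8.45e-06), and 1.54-fold and 1.83-fold at 50 days (adjusted p = 2.22e-06 and 3.45e-08). With age in females 1 of the 44 rose, TAF1B, and 3 fell, led by WDR75 (log2 0.46 and -0.42, edgeR adjusted p = 0.036 and 0.0112). Of all genes 6.8% rose and 8.05% fell there. The interaction was called lower for 2, NCL and UBTF (-0.36 and -0.49, edgeR adjusted p = 0.0202 and 0.026), and higher for 0. Of all genes 6.57% were called lower and 5.75% higher in it.

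Of the 21 genes of mTOR signalling and control, 6 were lower and 3 higher in males at 50 days, where 17.2% and 16% of all genes were. With age 3 fell and 0 rose in males, where 14.2% and 12.5% of all genes did, and 4 fell and 1 rose in females, where 8.05% and 6.8% did. MYCN, a transcription factor that drives ribosomal genes, fell with age by 1.61 in males and 0.78 in females (adjusted p = 1.15e-07 and 0.000557). It was 2.05-fold lower in males at 50 days (edgeR adjusted p = 8.04e-06), and its age changes differed between the sexes by -0.83 (adjusted p = 0.011). The RSK-family kinase gene RPS6KA2, not an mTOR-driven S6 kinase, was 2.35-fold lower in males at 50 days (edgeR adjusted p = 0.00493). RPS6KA2 fell with age in males by 1.21 (edgeR adjusted p = 0.0106). In females EIF4EBP1, a repressor of initiation that mTOR phosphorylates, fell with age by 0.46 (adjusted p = 0.00899). RHEB, the GTPase that activates mTOR, had an interaction of 0.76, opposite in sign to that of MYCN (adjusted p = 0.00331).

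The proteins of the mitochondrial ribosome are encoded by other nuclear genes. The list read here also holds MRPS36, whose protein is now assigned to the oxoglutarate dehydrogenase complex. Of 69 tested, 4 were higher in males at 20 days, where 1.92% of all genes were, with MRPS27 and MRPS30, both Z-linked, at 2.03-fold and 2.02-fold (edgeR adjusted p = 1.19e-06 and 7.92e-08). At 50 days 19 were higher and 1 lower, where 16% and 17.2% of all genes were, with a median log2 fold change of 0.21, and the Z-linked MRPS36 and MRPL17 led with 2.69-fold and 2.34-fold (adjusted p = 3.72e-08 and 2.62e-09). With age 4 rose and 0 fell in males, where 12.5% and 14.2% of all genes did. In females 1 rose and 3 fell, where 6.8% and 8.05% did. The medians over the 69, Z-linked genes included, were 0.10 in males and -0.09 in females, against -0.12 and -0.23 for the autosomal cytosolic members. MRPS36 and MRPL53 rose most in males (log2 0.66 and 0.51, edgeR adjusted p = 0.00163 and 0.0221), and MRPS9 and MRPS31 fell most in females (-0.36 and -0.37, adjusted p = 0.00552 and 0.0456). The interaction was called higher for 3 and lower for 0, where 5.75% and 6.57% of all genes were. MRPS25 and MRPS9 led (0.61 and 0.47, edgeR adjusted p = 0.0174 and 0.0137).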

How the data were processed

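The deposited table holds raw counts of reads per gene, which the authors left unnormalised, for the 22 libraries. The submitters' processing notes list Trimmomatic 0.36, FastQC 0.11.9 and STAR 2.6.1, tools that trim, check and align reads. How reads were counted, on which build and annotation and with which strand setting, is not given in the sources used here. The 169 of 21955 rows without a gene ID (0.0344% to 0.0739% of a library's counts) were left out. Symbols, chromosome class and neighbours come from the gene table of the bTaeGut7.mat assembly, which matched 16205 of the 21786 genes and may not be the build used for alignment, so no coordinates are given.

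In R 4.3.3, counts were scaled by TMM and filtered with filterByExpr, which left 16004 genes. The 4 groups were fitted in 1 model with edgeR 4.0.16 (quasi-likelihood F-test), with Benjamini-Hochberg adjustment over all genes tested and a threshold of 0.05. The SE is that of the log2 fold change. The interaction subtracts the female age change from that of the males. Z-linked members were also set against the autosomal members within a library as log2(CPM + 0.1), with an exact permutation test. The main edgeR fit was checked by a simulation in which 200 genes were altered, in the comparisons of sex and of age. The interaction, the permutation test and the alternatives listed below were not part of that simulation. PCR copies were not told apart by molecular identifiers, and how far depth limits the precision of each member was not measured.

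The members, roles and companion lists were chosen with earlier results of these data known. The genes named are every Z-linked member, per comparison the 4 called autosomal members that rose most and the 4 that fell most (3 and 3 for the interaction), the 3 members with the most and the 3 with the fewest CPM, the members of the role lists, and the 2 called genes with the largest change per companion list and comparison. Other names are marked as chosen after their values were seen. Results for a few genes are not reported here. Medians and counts over members carry no test, because members share libraries. Alternatives were DESeq2 1.42.0, voom of limma 3.58.1, other scalings and filters, thinning, a depth term, a replicate block, a fit of only the groups compared, stricter thresholds, summing female 50-day replicates 5 and 6, and leaving out each library. Scaling over the members alone and a fit of shallow libraries only were added after the data were seen.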

Additional observations from a re-analysis of the deposited data

Results flagged for a closer look

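In 4 of 124 groups of libraries tested (3.23%), 1 library lay further from the rest than Dixon's criterion allows, where chance gives about 1 in 20. RPL8 was high in male 20-day replicate 4, at 162 CPM with the next library at 144.7 CPM. In female 50-day replicate 3 RPL8 was low, at 70.22 CPM with the next at 105.6 CPM, and so was RPS15, at 41.1 CPM with the next at 68.44 CPM. This is the library in which 57 of 67 autosomal members had the lowest value of their group. RPL3L was high in female 50-day replicate 4, at 0.146 CPM with the next at 0.051 CPM.

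The sex difference of RPS28 was larger at 50 than at 20 days by 1.2311 on the log2 scale, by the interaction test of edgeR (adjusted p = 0.00103). The 5 males at 50 days had 33.1 to 53.6 CPM and the other 17 libraries 9.74 to 26.8 CPM.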

How the results depend on the processing

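Of 70 members 2 differed by sex at 20 days, 10 at 50 days, 7 with age in males, 9 with age in females and 1 in the interaction. None of the members named by the rule reversed the direction of a call. The autosomal medians, which carry no test, changed sign when scaled over the members alone, between the sexes at 20 days (0.03 to -0.0079) and 50 days (0.13 to -0.019) and with age in females (-0.23 to 0.015). That scaling puts the members near 0 by construction, so these sign changes carry no weight. At 20 days the sign also changed with the depth term (-0.066) and without female 20-day replicate 5 (-0.040) or male 20-day replicate 2 (-0.015). Scaling over the members alone also called 3 members lower at 50 days. Counts moved past 1.5 times as follows. At 20 days voom called 4 and the depth term 1. At 50 days an adjusted p under 0.01 left 6, a test against a fold of 1.2 left 5 and the shallow libraries alone 5. With age in males no filter gave 4, the depth term 2, an adjusted p under 0.01 3, the fold of 1.2 2, scaling over the members alone 3 and the shallow libraries 1. With age in females the depth term gave 2, the fold of 1.2 1 and scaling over the members alone 1. The interaction gave 2 with DESeq2 and 0 with the depth term. A stricter threshold lowers a count by construction; for the other settings the cause was not tested.

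Leaving out 1 library at a time, the counts ran from 2 to 4 at 20 days (4 without female 20-day replicate 3), from 6 to 13 at 50 days, from 4 to 8 with age in males, from 7 to 13 with age in females and from 1 to 2 in the interaction, where RPS27L joined. RPS6, RPS23, RPL37, RPS28 and RPS27L kept their calls at 50 days under all 38 alternatives. With replicate number as a block the counts were 2, 7, 7, 7 and 1. Numbers 6 and 7 occur only among the females at 50 days. The block fits those libraries exactly, so they no longer inform the comparisons. In this fit RPL13, RPL23 and RPS15 lost their calls at 50 days, and with age in females RPS12 and RPS15 did. Deviations of same-numbered libraries correlated with a median r of -0.012 (-0.11 to 0.28), those of other numbers with -0.0145 (-0.216 to 0.367). These pairs reuse the same libraries, and whether equal numbers mark a pairing was not tested. Summing female 50-day replicates 5 and 6 left 7 of the 10 calls at 50 days, without RPL13, RPL13A and RPL23.

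Depth cannot be told apart from sex at 20 days, and it runs nearly in parallel with age in females. The depth term rests on the older birds alone, so it cannot separate depth from sex at 20 days. With every library thinned to the smallest, the calls of the 5 comparisons were 2, 10, 6, 9 and 1, with RPS3A in males the 1 lost.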
